A study of Arabidopsis thaliana with 3 samples.

Results

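The genes described here are Arabidopsis thaliana genes known in the array annotation only by a locus code, whose transcript signal in wrky6-1 seedlings was at least 2-fold above or below wild type while the overexpressor 35S:WRKY6-9, written 35S:WRKY6 from here on, stayed within 1.5-fold of wild type. A probe set, the group of short oligonucleotides that measures one transcript on an Affymetrix array, was the unit counted. The members were chosen by these 2 ratios and by the higher of the wild-type and wrky6-1 signals. In all, 237 of 22746 Arabidopsis probe sets met the rule, 110 of them higher and 127 lower in wrky6-1, and they named 235 of the 13350 genes with a probe set of their own. AT4G14090 and the ATG8 autophagy loci were left out, and 1 probe set that met the thresholds was removed in this way. All 235 genes were found in the TAIR10.1 gene table.

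The 3 arrays held RNA from whole 7-day-old seedlings, 1 array per genotype. The wild type was of the Columbia ecotype, 35S:WRKY6-9 was a WRKY6 overexpressor and wrky6-1 a WRKY6 knockout, and the labels gave no ecotype for the lines, which were each represented by a single line. The 35S promoter, from a plant virus, is active in most plant tissues. All seedlings were grown on MS agar under constant light after a cold treatment of the seeds. No genotype was replicated, so no test was run and every ratio compares single arrays. The labels do not say how many plants each array pooled.

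WRKY factors are plant transcription factors that bind a short promoter element called the W-box. WRKY6 is known from senescing and pathogen-treated leaves, and it is known to repress PHO1, the gene of a phosphate exporter that loads phosphate into the xylem. The comparison asks which genes stand apart when WRKY6 is lost but not when it is made in excess.

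The median signal was between 169 and 182 on the 3 arrays, and 29.8% to 30.3% of Arabidopsis probe sets lay below 45.5, the pooled 30th percentile, to which lower signals were raised. WRKY6 itself gave 322 on the wild-type array, 9245 on that of 35S:WRKY6 and 12.1 on that of wrky6-1, in the directions of the labels. Of the photosynthesis markers, 4 of the 22 had a measured probe set, and their summed signals were 52369 in wild type, 62959 in the overexpressor and 65620 in the knockout. Their log2 ratios of wrky6-1 to wild type were 0.35 for RCA, 0.71 for SBPASE, 0.39 for PRK and 0.09 for PSAE-1. Those of 35S:WRKY6 to wild type were 0.34, 0.46, 0.57 and -0.11 in the same order. Of the root markers, 3 of the 12 were measured, with summed signals of 15440, 19558 and 19227 on the same arrays. Most of that sum was PYK10, at 14213, 17509 and 18203. The other root markers differed in direction in the knockout, with 1048, 1743 and 829 for AT5G17820 and 179, 305 and 195 for EXPA18. None of the 7 reached a 2-fold difference in wrky6-1. The part of root or green tissue share in the members' ratios was not tested. Fewer cells of a type and less RNA per cell cannot be told apart in whole seedlings.

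Of 5414 locus-coded probe sets measured in wild type or wrky6-1, meaning that the higher of the 2 signals reached 174.6, the 110 rises were 2.03% and the 127 falls 2.35%. By the 2-fold threshold in wrky6-1 alone, 232 (4.29%) were higher and 444 (8.2%) lower. These shares come from the same ratios as the rule and describe it only. The 110 rises were 47.4% of the 232, while 45 had a 35S:WRKY6 signal 1.5- to 2-fold above wild type, 59 at least 2-fold above it and 18 at least 1.5-fold below it. The 127 falls were 28.6% of the 444, while 132 had a 35S:WRKY6 signal 1.5- to 2-fold below wild type, 179 at least 2-fold below it and 6 at least 1.5-fold above it. Over all 5414 the lower and upper quartiles of the log2 ratio of 35S:WRKY6 to wild type were -0.40 and 0.24, both inside the 1.5-fold limit. Both lines were set against the same wild-type array, so that array's own deviation enters both ratios. The mirror-image rule, with 35S:WRKY6 at least 2-fold from wild type and wrky6-1 within 1.5-fold, gave 162 locus-coded probe sets, 87 higher and 75 lower. It was filtered on the higher of the wild-type and 35S:WRKY6 signals, so its base was not the 5414 probe sets. No share was computed for it, and these counts give no comparison of rates with the members.

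**Figure D1:**
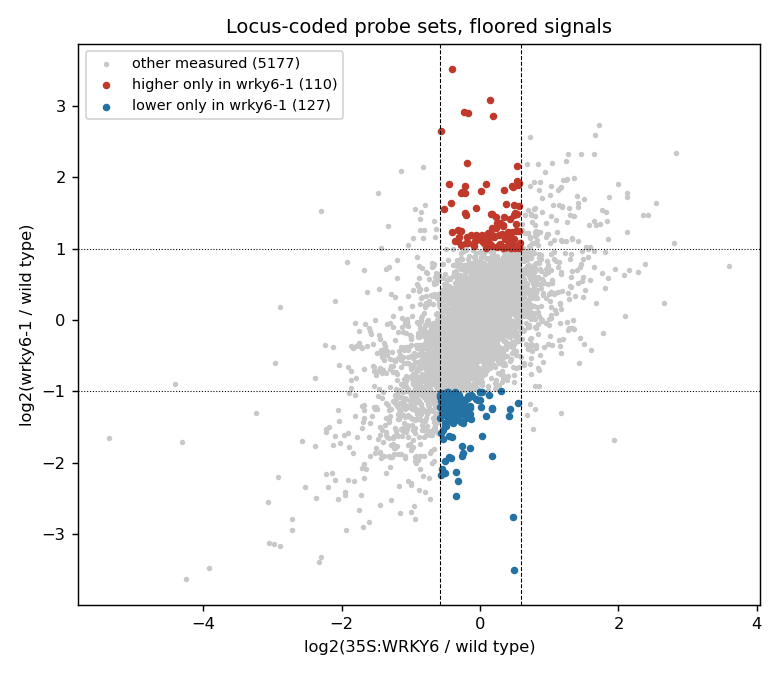
Each point is a measured locus-coded probe set, with the log2 ratio of 35S:WRKY6 to wild type on the horizontal axis and of wrky6-1 to wild type on the vertical axis. The 110 rises (red) and 127 falls (blue) fill the space beyond the dotted 2-fold lines and between the dashed 1.5-fold lines, and grey points continue on both sides of those lines.

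Among the genes higher in wrky6-1, AT3G28270 stood first. The wild-type array gave 220, the overexpressor 166 and the knockout 2501, which is 11.4-fold higher in the knockout than in wild type. AT1G06000 followed, with 454, then 502 in the overexpressor and 3835 in the knockout, 8.45-fold higher. For both, wild type and 35S:WRKY6 lay close together and the knockout stood far above them.

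AT3G26960 had signals of 71.9, 61.5 and 541 in wild type, 35S:WRKY6 and wrky6-1, a 7.52-fold difference from wild type. AT5G47330 had 118, 105 and 879 in the same order, 7.44-fold. AT2G27420 had 49.5, 56.4 and 357, 7.22-fold. The wild-type and 35S:WRKY6 signals of AT2G27420 were just above the floor, so its ratio depends on where the floor is set.

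AT1G52000 went from 242 in wild type to 1519 in wrky6-1, 6.27-fold higher, with 164 in 35S:WRKY6. AT2G22590 had 51.8 in wild type and 237 in wrky6-1, 4.57-fold higher, and its 35S:WRKY6 signal of 24.0 lay under the floor. With the floor at the 20th percentile its log2 ratio of 35S:WRKY6 to wild type was -1.11 in place of -0.19, outside the 1.5-fold limit. The same held for the 3 other rises with a 35S:WRKY6 signal under the floor, AT1G13650, AT1G31550 and AT1G70985, so these 4 meet the rule only through the floor. AT2G30540 had 127, 183 and 565 in wild type, overexpressor and knockout, 4.47-fold higher. In AT1G52000 the overexpressor was the lowest of the 3 arrays, and in AT2G30540 it lay between wild type and the knockout.

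These 8 were the rises of at least 4-fold. AT4G04750 (67.0, 97.0 and 258) and AT2G16890 (47.3, 70.2 and 178) came next, 3.85-fold and 3.76-fold higher in wrky6-1 than in wild type. With the floor at the 40th percentile the log2 ratio was 1.89 for AT2G27420 and 1.30 for AT2G22590, and AT2G16890, at 0.88, no longer reached 2-fold, nor did AT2G44510. A further 15 rises were between 3-fold and the value of AT2G16890, among them AT5G45950 with 1231 in wild type, 1599 in the overexpressor and 3777 in the knockout. The other 85 were under 3-fold, and 69 of them under 2.5-fold. The median log2 ratio over the 110 was 1.19, or 2.28-fold, against -0.04 over all 5414 measured locus-coded probe sets. The 110 were chosen by this ratio, so the rule sets that gap. Their log2 ratios of 35S:WRKY6 to wild type ran from -0.56 to 0.58, with a median of 0.23, against -0.06 over all 5414.

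Wild-type signals of the rises ran from 47.3 to 2400, with a median of 223, and their wrky6-1 signals from 177 to 5248, with a median of 545. For 47 of the 110 the wild-type signal was under 174.6, so these were measured only because they were high in wrky6-1. None had a wild-type signal under the floor, although the lowest lay just above it and no detection calls were used. The highest signal of any rise belonged to AT5G16010, at 2400 in wild type, 3083 in the overexpressor and 5248 in the knockout, 2.19-fold, which fell short of 2-fold under lowess scaling (log2 ratio 0.98). A probe-set signal does not rank transcripts of different genes.

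Among the genes lower in wrky6-1, AT1G73120 stood first. The wild-type array gave 1240, the overexpressor 1734 and the knockout 110, 11.3-fold lower in the knockout than in wild type. AT5G01740 had 1225, 1701 and 180 in the same order, 6.79-fold lower. In both genes the overexpressor was the highest array and the knockout by far the lowest.

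AT1G54740 had 1241 in wild type, 979 in the overexpressor and 225 in the knockout, 5.52-fold lower. AT3G28550 had 313, 252 and 65.4 in that order, 4.79-fold lower. AT3G01260 had 219, 148 and 48.6, 4.51-fold lower. In these 3 genes 35S:WRKY6 lay between wild type and wrky6-1, nearer to wild type.

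AT2G30600 had 1135, 803 and 256, 4.43-fold lower, by the probe set that met the rule. AT3G15770 had 411, 324 and 93.5, 4.40-fold lower. AT1G55590 had 264, 180 and 62.2, 4.25-fold lower. AT5G53360 (247, 173 and 63.0) and AT3G01490 (530, 395 and 139) were 3.92-fold and 3.82-fold lower and completed the 10 largest falls. For all 5 of these genes the 35S:WRKY6 signal was below that of wild type and above that of wrky6-1. With the higher floor the log2 ratios of AT3G01260, AT1G55590 and AT5G53360 were -1.18, -1.46 and -1.36.

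**Figure D2:**
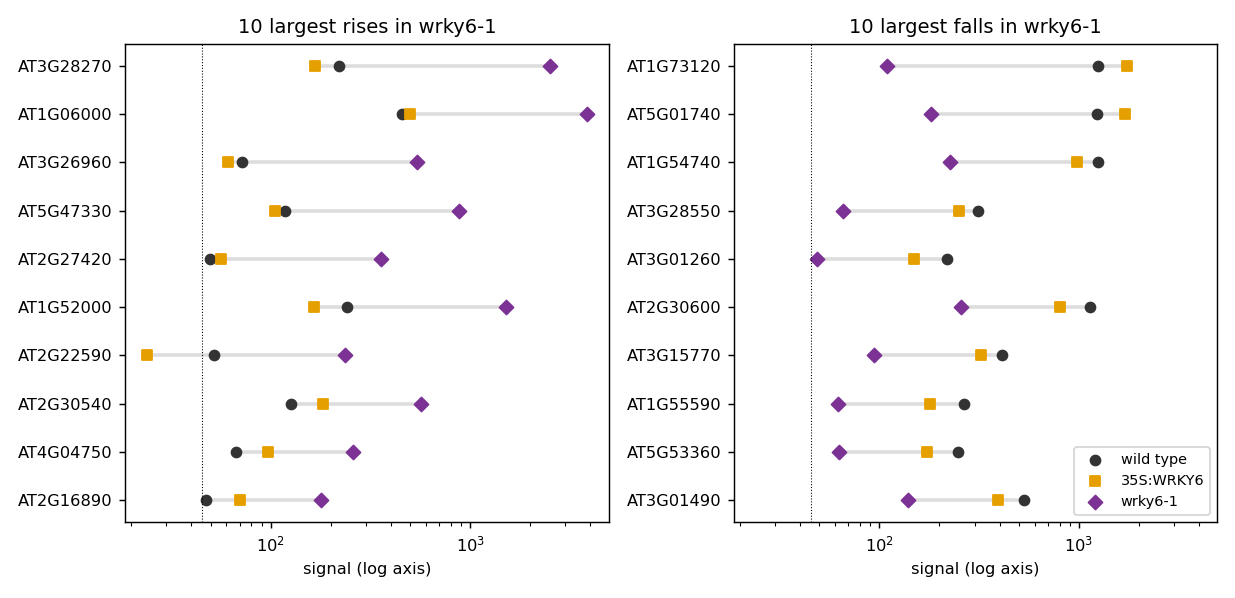
Signals (log axis) of the 10 largest rises (left) and falls (right) on the single array of each genotype, with a dotted line at the floor of 45.5. On the left wrky6-1 lies above the other arrays, and on the right below them, with the gap to both widest in AT3G28270 and AT1G73120.

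There were 8 falls of at least 4-fold, and 21 of at least 3-fold. Of the other 106, 85 were under 2.5-fold. The median log2 ratio over the 127 falls was -1.21, a 2.32-fold difference. Their log2 ratios of 35S:WRKY6 to wild type had a median of -0.39, between -0.58 and 0.55, against -0.06 over all 5414. The upper quartile was -0.23, so most falls were also lower in the overexpressor than in wild type, by less than 1.5-fold. Wild-type signals of the falls ran from 175 to 10924, with a median of 526, and their wrky6-1 signals from 48.6 to 5102, with a median of 208. In 55 of the 127 the wrky6-1 signal was under 174.6, and in none under the floor.

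Some falls were measured at high signal, where background subtraction matters least. AT1G49500 had 10924 in wild type, 8480 in the overexpressor and 5102 in the knockout, 2.14-fold lower. AT1G25275 had 8550, 11402 and 3353, 2.55-fold lower, with the overexpressor highest. AT4G35750 had 6328, 4466 and 2289, 2.76-fold lower. In 34 falls and 26 rises at least 1 array reached a signal of 1000.

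A search of the gene table found a descriptive name for only 5 members. It looked for lower-case words and for symbols of capitals with digits only at the end, so symbols of other forms could be missed. AT5G61590, listed as DEWAX (Decrease Wax Biosynthesis) and known as an AP2/ERF repressor of cuticular wax genes, gave 3804 in wild type, 3378 in the overexpressor and 1815 in the knockout, 2.10-fold lower than in wild type. AT3G53250, listed as SAUR57 of the small auxin upregulated RNA family, had 206, 164 and 90.9, 2.27-fold lower. Both falls were near the 2-fold threshold and neither reached 2-fold against 35S:WRKY6. Each missed 2-fold against wild type under 1 alternative, with a log2 ratio of -0.99 for AT5G61590 under median scaling and -0.96 for AT3G53250 with an offset of 32 in place of the floor.

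AT3G09720, listed as RNA helicase 57, had signals of 102, 84.1 and 242 in wild type, 35S:WRKY6 and wrky6-1, 2.37-fold higher in the knockout. AT1G59740, listed as NPF4.3 of the NRT1/PTR family, whose members transport nitrate, peptides and hormones among other substrates, had 200, 150 and 470, 2.35-fold higher. AT2G39020, listed as NATA2, had 435, 598 and 914, 2.10-fold higher. The knockout exceeded 35S:WRKY6 by 2.87-fold in AT3G09720 and 3.13-fold in AT1G59740, and by 1.53-fold in AT2G39020. The other 230 genes have no role stated here, since the search found no descriptive name for them in the gene table. For the same reason the functional classes that had been listed could not be counted.

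None of the pathway genes listed for WRKY6-related biology was a member. Those measured carried a symbol or, for AT4G14090, were left out by name, so the rule set this absence in advance. The phosphate starvation list of 24 genes had 0 probe sets named here, and of the 15 defence genes the 1 with a probe set was not measured. Of the 19 senescence and dark-response genes 1 was measured, with a log2 ratio of -0.91 in wrky6-1. Of the 18 flavonoid and anthocyanin genes 6 were measured, and all 6 were at least 2-fold higher in wrky6-1. They carried a symbol or, in the case of AT4G14090, were left out by the rule. DFR, UGT78D1 and UF3GT also failed the 1.5-fold limit, with log2 ratios of overexpressor to wild type of 1.44, 0.94 and 0.93. UGT78D2 and AT4G14090 were within that limit, at 0.28 and -0.31. AT5MAT had 16.9 in wild type and 25.4 in the overexpressor, both under the floor, so this ratio cannot be judged for it. Over all measured probe sets 5.16% were 2-fold higher and 7.77% 2-fold lower in wrky6-1. Earlier results of these data had already shown 5 of these 6 to be higher, so they are no independent evidence of a direction.

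A difference from wild type in one line only does not show that the lines differ from each other, so the knockout was also set directly against 35S:WRKY6, a ratio that leaves the wild-type array out. Of the 110 rises, 62 were at least 2-fold above 35S:WRKY6 and 48 were not. Of the 127 falls, 50 were at least 2-fold below 35S:WRKY6 and 77 were not. Over 5272 locus-coded probe sets measured in either line, 4% were 2-fold higher and 4.17% 2-fold lower in wrky6-1 than in 35S:WRKY6. The rule itself keeps this ratio from being small, so the members' counts are a description. The median log2 ratio of wrky6-1 to 35S:WRKY6 was 1.07 over the rises and -0.92 over the falls.

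The widest gaps between the lines were in AT1G73120, 15.8-fold lower in wrky6-1 than in 35S:WRKY6, and AT3G28270, 15.1-fold higher. AT5G01740 was 9.43-fold lower, AT1G52000 9.23-fold higher and AT3G26960 8.79-fold higher. At the other end, AT5G24760 (140, 207 and 280 in wild type, overexpressor and knockout) was 1.36-fold higher in wrky6-1 than in 35S:WRKY6, and AT5G27730 (333, 226 and 164) was 1.38-fold lower. Genes of the second kind have graded values over the 3 arrays rather than a change in the knockout alone.

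**Figure D3:**
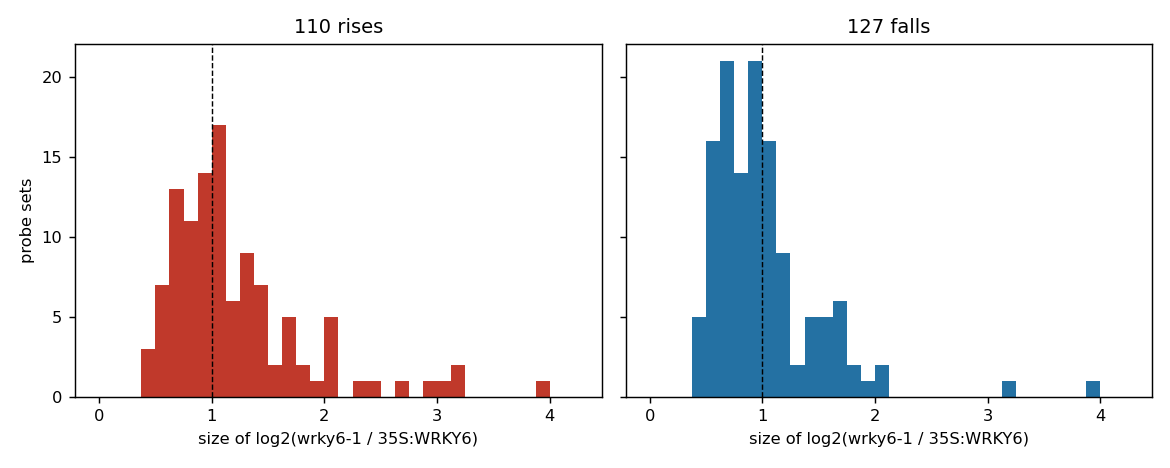
Number of probe sets by the size of the log2 ratio of wrky6-1 to 35S:WRKY6, for the 110 rises (left) and 127 falls (right). The dashed line marks 2-fold, with 62 rises and 50 falls at or beyond it.

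Members near the limits show how the rule divides a continuous range. AT5G17210 was just inside the 2-fold limit with a log2 ratio of 1.003, and AT4G24130 just outside with 0.998. Among the falls AT1G13640 was inside at -1.002 and AT1G63980 outside at -0.999. At the 1.5-fold limit for 35S:WRKY6, AT4G29030 was inside with a log2 ratio of 0.580 and AT2G37240 outside with 0.594, and AT4G29890 was inside at -0.583 and AT3G10030 outside at -0.586. At the signal filter AT2G44510 was inside with 177 in wrky6-1 and AT1G06270 outside with 174.632, and AT5G25210 inside with 174.958 in wild type and AT5G57830 outside with 172.

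The only view of precision these arrays offer is how far 2 probe sets for 1 gene differ. Over 50 genes with several measured probe sets the SD of a probe set's log2 ratio of wrky6-1 to wild type was 0.27, and that SD holds no variation from plant to plant or array to array. Within that distance above the 2-fold limit lay 66 of the 110 rises and 78 of the 127 falls. Within the same distance of the 1.5-fold limit for 35S:WRKY6 lay 56 rises and 82 falls.

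A second probe set existed for 5 member genes. Both probe sets of AT1G01320 met the rule, with 1646, 2108 and 3642 in wild type, overexpressor and knockout by one and 279, 369 and 656 by the other, log2 ratios of 1.15 and 1.23 in the knockout. Both probe sets of AT2G37480 did so too, with 1929, 1509 and 799 by one and 1181, 965 and 518 by the other, log2 ratios of -1.27 and -1.19. For these genes the paired probe sets differed by less than the SD above.

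In the other 3 genes the second probe set did not meet the rule. For AT2G30600 it gave 1183, 620 and 295, a log2 ratio of -2.00 in wrky6-1 and of -0.93 in 35S:WRKY6, so by this probe set the gene was also lower in the overexpressor. For AT2G37840 the member gave 190, 148 and 81.4, while the other gave 273, 284 and 174, with log2 ratios of -1.22 and -0.65 in wrky6-1, and with the floor at the 40th percentile the first was -0.98. For AT5G63200 the member gave 354, 259 and 172, and the other 407, 293 and 227, with log2 ratios of -1.04 and -0.84. In all 5 genes the 2 probe sets had the same direction in wrky6-1, and the 2-fold limit was missed by 2 of the second probe sets. The gene table lists a second locus code as a synonym for each of these 3 genes and for no other member, AT2G30610, AT2G37850 and AT5G63210 respectively. Whether the paired probe sets were designed to the separate codes was not tested.

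**Figure D4:**
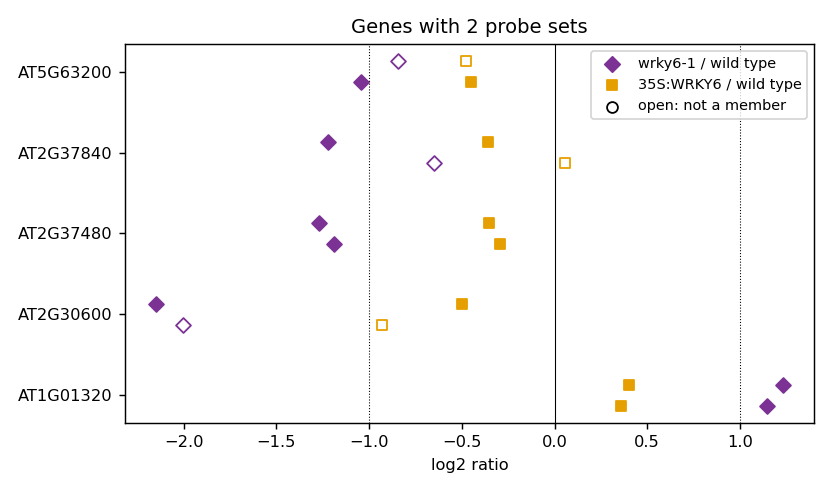
Log2 ratios to wild type of the 2 probe sets of each of 5 member genes, for wrky6-1 (diamonds) and 35S:WRKY6 (squares), filled where the probe set met the rule. The dotted lines mark 2-fold, and AT2G37480 and AT1G01320 have both pairs filled and close together.

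The members were spread over all chromosomes, as read from their locus codes. Rises made up between 1.46% of the measured locus-coded probe sets on chromosome 1 and 2.66% on chromosome 2, and falls between 2.16% on chromosome 2 and 2.67% on chromosome 5. In the order of protein-coding genes in the TAIR10.1 table, 5 pairs of members were direct neighbours. Of these, 2 moved the same way and 3 the opposite way. In the order of all genes in that table only the 3 opposite pairs were direct neighbours. No expected number of pairs is given here, so these counts are a description.

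The neighbours lower together were AT5G63190 (3366, 2368 and 1235 in wild type, 35S:WRKY6 and wrky6-1) with AT5G63200, given above, and AT1G23710 (317, 233 and 152) with AT1G23720 (506, 506 and 251). The probe set of AT1G23720 is of a type that may hybridise to several transcripts, the only one of its kind among the members. In both pairs the 2-fold call depended on the scaling. Under quantile scaling the log2 ratio in wrky6-1 was -0.98 for AT5G63200, -0.999 for AT1G23710 and -0.97 for AT1G23720, and under median scaling -0.97, -0.99 and -0.94. The opposite pairs had a lower gene beside a higher one. AT1G13640 gave 650, 804 and 324 in wild type, overexpressor and knockout, and AT1G13650 beside it 62.2, 25.1 and 233. AT1G13640 missed 2-fold under each other scaling, with log2 ratios of -0.94, -0.93 and -0.97, and AT1G13650 meets the rule only through the floor, so this pair rests on both choices. AT3G14750 gave 209, 208 and 95.6, and AT3G14740 beside it 140, 191 and 310. AT3G57480 gave 370, 281 and 157, and AT3G57490 beside it 642, 829 and 1297. No pair had overlapping gene spans in the table. Of 48 measured genes directly beside a rise, and themselves no members, the median log2 ratio in wrky6-1 was -0.08. Of 62 such genes beside a fall it was -0.05. Over 6349 measured genes, members included, it was -0.04.

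The members were more frequent among probe sets of low signal. The measured locus-coded probe sets were split into 3 equal parts by their mean signal in wild type and wrky6-1. In the low part, up to 313, rises were 2.66% and falls 3.38%. In the middle part they were 2.11% and 2.05%, and in the high part, from 673, 1.33% and 1.61%. The filter acts on the higher of the 2 signals and the split on their mean. A probe set with a mean under 174.6 is therefore measured only where its 2 signals differ, which favours changed ones in the low part. Of the rises 47 had a wild-type signal under 174.6, and of the falls 55 had a wrky6-1 signal under it. The shares by signal thus come partly from the rule. Ratios of low signals are also the least precise, and the part of that imprecision in the counts was not tested.

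**Figure D5:**
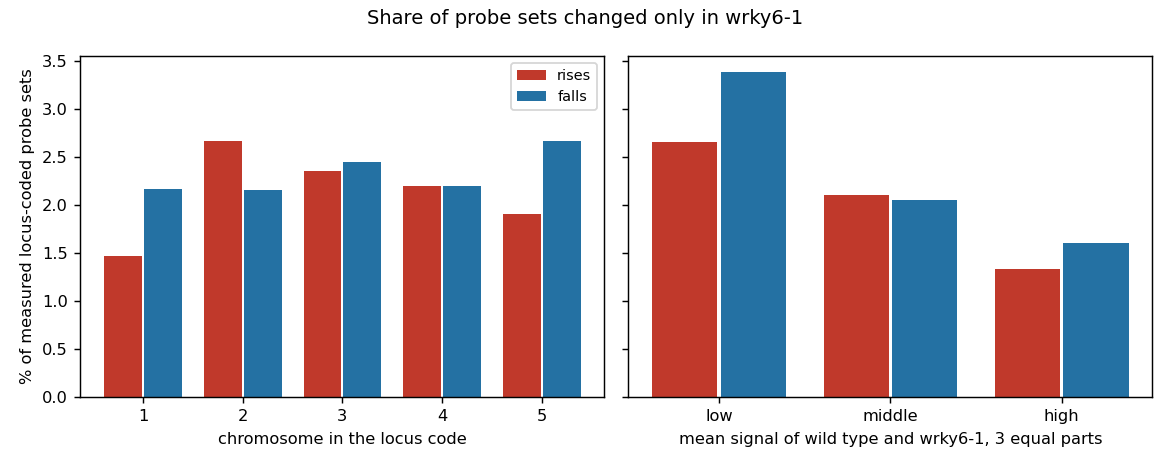
Share of measured locus-coded probe sets that were rises (red) or falls (blue), by chromosome (left) and by mean signal of wild type and wrky6-1 (right). Rises run from 1.46% on chromosome 1 to 2.66% on chromosome 2, and both shares are lower in the high part of the signal range, at 1.33% and 1.61%, than in the low part, at 2.66% and 3.38%.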

How the data were processed

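The authors' deposited table held 1 signal intensity per probe set and array on a linear scale. GCOS 1.0 and MAS5 were used, per the submitters' processing notes, which give neither a role, and no genome build or background step is given in the sources used here. The 2% trimmed means were 500.0, 499.8 and 500.1, so the arrays were already scaled and were not rescaled. Of 22810 probe sets 64 controls were left out. The annotation named 1 gene for 13513 probe sets, 11933 of them by a locus code only. Several genes were named for 503, and 8730 were not listed.

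Signals under the pooled 30th percentile (45.5) were raised to it, log2 ratios were taken, and the rule was applied with numpy 2.4.6 and pandas 2.3.3 under Python 3.11.15, after a check on simulated data. Precision is limited by having 1 array per genotype. The alternatives covered scaling, floor, filter and thresholds. The members and lists were chosen with earlier results of these data known. Named genes were the 10 largest differences per direction, the 3 highest signals, the genes nearest each limit, neighbours of the same direction, genes with a second probe set, and those with a descriptive name. Opposite neighbour pairs, the widest and narrowest gaps between the lines and rises with 35S:WRKY6 under the floor were named after their values were seen. The TAIR10.1 table gave gene order and synonyms, with 12 genes lacking a position left out. No sequences were used.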

Additional observations from a re-analysis of the deposited data

Results flagged for a closer look

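The annotation used here did not list 8730 probe sets, and the comparisons of genes left them out. Of the 5566 measured among them, 181 met the same thresholds as rises and 130 as falls, or 3.25% and 2.34%, so the locus-coded members are a part of the probe sets with this pattern. They drew attention as a signal in data outside the comparisons. The largest were 245628_at, at 23.0, 12.1 and 587 in wild type, overexpressor and knockout (at least 12.9-fold higher in the knockout than in wild type), and 250083_at, at 93.9, 139 and 1018 (10.8-fold higher). The wild-type and overexpressor signals of 245628_at were both under the floor, so its ratio of overexpressor to wild type cannot be judged. That log2 ratio was 0.57 for 250083_at, just inside the 1.5-fold limit. Among the lower ones 252081_at had 422, 346 and 66.4 (6.35-fold lower), and 255479_at had 15551, 11574 and 2641 (5.89-fold lower). Their genes are not named here.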

How the results depend on the processing

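No paired analysis was possible because each genotype had 1 array, and for the same reason no replicate could be left out. The counts of 110 rises and 127 falls stayed within 1.5 times under 8 of the 12 alternatives, which were quantile, median and lowess scaling, another floor (20th or 40th percentile), an offset of 32 in place of the floor, a filter on the mean and no filter (83 to 136 rises and 99 to 157 falls). With the filter at the 70th percentile they were 66 and 71. With the log2 ratio of 35S:WRKY6 held under 0.32 in size they were 56 and 47. With a 2-fold difference between the lines required as well they were 62 and 50, and with 3-fold in wrky6-1 they were 25 and 21. Under quantile, median and lowess scaling 95, 92 and 94 of the 110 rises and 107, 96 and 112 of the 127 falls met the rule again. With the offset 76 of the rises and 90 of the falls did so, the fewest under those 8 alternatives. Each alternative that lowered a count by over 1.5 times does so by keeping fewer probe sets. The log2 ratios of 49 named probe sets kept their sign under 6 alternatives, and 271 of the 294 values moved by less than 0.27. The larger moves came with the floor at the 40th percentile or the offset. With that floor the log2 ratio of AT2G27420 was 1.89, of AT2G22590 1.30, of AT3G01260 -1.18, of AT1G55590 -1.46 and of AT5G53360 -1.36, while the rises AT2G16890 and AT2G44510, both at 0.88, and the falls AT2G37840 at -0.98, AT1G31950 at -0.87 and AT5G25210 at -0.86 no longer reached 2-fold. Of the named probe sets, 5 falls missed 2-fold under quantile scaling, 6 falls under median scaling, 3 falls and 1 rise under lowess scaling, and 10 falls and 2 rises with the offset. With the floor at the 20th percentile 4 rises left the rule, those with a 35S:WRKY6 signal under the main floor.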
